A study of Mus musculus with 5 samples.

Results

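Microglia, the resident macrophages of the brain, are read here through 9 genes in the hippocampus of young *Hdac1* cKO mice and their controls. The members were chosen by symbol, with no value of theirs in the rule: the C1q chain genes *C1qa*, *C1qb* and *C1qc*, the receptor genes *Cx3cr1*, *P2ry12*, *Csf1r* and *Trem2*, the adaptor gene *Tyrobp* and the membrane protein gene *Tmem119*. All 9 were found among the 23361 gene symbols of each file. Hippocampal RNA-seq covered 3-month-old mice of 2 groups, control (Hdac1f/f, n = 2) and *Hdac1* cKO (Hdac1f/f, Nestin-Cre, n = 3). Both groups carried the floxed *Hdac1* allele, and only the cKO mice carried Nestin-Cre, so an effect of the Cre transgene itself and of the deletion cannot be told apart. The study counts each library as a mouse and describes the animals as male. Nestin-Cre is active in neural progenitors and the neurons and astrocytes they give rise to. Microglia descend from another lineage, so the genes described here belong mainly to a cell type that the deletion does not target, measured inside tissue whose neurons and astrocytes have lost HDAC1.

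C1q is the recognition molecule of the classical complement pathway. It is assembled from A, B and C chains in equal number, and in the brain it is made largely by microglia and takes part in tagging synapses. CSF1R is the receptor kinase on which microglia depend for survival, and CX3CR1 receives the chemokine CX3CL1 from neurons. P2RY12 senses extracellular nucleotides and TMEM119 marks resting microglia. TREM2 is a receptor for lipids and lipoproteins that signals through the adaptor TYROBP, also known as DAP12. *P2ry12*, *Tmem119* and *Cx3cr1* are known to fall when microglia leave their resting state, while *Trem2* and *Tyrobp* are known to rise.

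The C1q chain genes lie side by side on the minus strand of chromosome 4 (mm9), in the order *C1qb* (136436044 to 136442102), *C1qc* (136445719 to 136448980) and *C1qa* (136451832 to 136454718). A gap of 3617 nt separates *C1qb* from *C1qc* and a gap of 2852 nt separates *C1qc* from *C1qa*, and each gene has 3 exons in its largest transcript. *Tyrobp* (chromosome 7, 31198807 to 31202596, plus strand) starts or ends 136 nt from *Hcst*, which encodes the related adaptor DAP10. *P2ry12* (chromosome 3, 59020193 to 59066753, minus strand) lies inside *Med12l* on the opposite strand and shares no exonic sequence with it. *Cx3cr1* was at chromosome 9, 119957811 to 119977400, and *Tmem119* at chromosome 5, 114243738 to 114250525, both on the minus strand. *Trem2* was at chromosome 17, 48485726 to 48493472, on the plus strand. Apart from *Csf1r*, whose overlap with another gene is given with its values, no member had a protein-coding copy at 95% identity over 200 nt.

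Upstream sequences are shown because the neighbouring C1q genes can be compared at their starts and because PU.1, the macrophage transcription factor encoded by *Spi1*, binds sites built on the letters AGGAAGT. The promoter table used here, from RefSeq (GRCm38.p6), was matched for 5 of the 9 members, *C1qb*, *C1qc*, *Cx3cr1*, *P2ry12* and *Trem2*. The letters were searched on both strands in the 250 bases before the gene start and were found in 3 of these 5, against 7.69% of 32851 promoters of the same length. They were chosen with these sequences in view. The 3 windows follow, 5′ to 3′ on the coding strand, with the match in capitals (ACTTCCT is the same motif read on the opposite strand). They are chr4:136886201-136886450 and chr4:136892915-136893164 for the C1q genes and chr3:59262986-59263235 for *P2ry12*, all on the minus strand.
C1qb: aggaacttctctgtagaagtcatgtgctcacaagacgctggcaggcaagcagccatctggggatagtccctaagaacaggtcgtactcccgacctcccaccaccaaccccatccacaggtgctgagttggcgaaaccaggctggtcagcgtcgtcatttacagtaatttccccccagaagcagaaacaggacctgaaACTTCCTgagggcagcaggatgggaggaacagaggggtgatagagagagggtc
C1qc: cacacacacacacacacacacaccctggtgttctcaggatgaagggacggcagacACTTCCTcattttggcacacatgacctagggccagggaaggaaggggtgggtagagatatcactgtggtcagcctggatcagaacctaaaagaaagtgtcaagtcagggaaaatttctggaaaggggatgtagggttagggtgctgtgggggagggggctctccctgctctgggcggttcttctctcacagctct
P2ry12: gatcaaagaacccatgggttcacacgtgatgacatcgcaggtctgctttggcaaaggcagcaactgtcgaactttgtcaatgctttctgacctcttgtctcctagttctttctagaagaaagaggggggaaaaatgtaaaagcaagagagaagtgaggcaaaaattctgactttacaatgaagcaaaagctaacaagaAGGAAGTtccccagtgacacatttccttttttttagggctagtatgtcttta
The match begins 53 bases before the start of *C1qb*, 195 bases before that of *C1qc* and 52 bases before that of *P2ry12*. The windows of *Cx3cr1* and *Trem2* do not hold these letters, which says nothing of other forms of the site.

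The targeted gene was low in each library labelled cKO. *Hdac1* was at 8.95 and 13.1 FPKM in control hippocampi against 1.95, 3.12 and 3.37 FPKM in cKO hippocampi, 25.5% of the control mean, and the groups did not overlap. FPKM scales fragments by transcript length and by the mapped total of the library, so levels can be set side by side between genes. The files give no read totals, and depth estimated from the steps between low FPKM values was about 5140000 to 6770000 fragments per library. At that depth the members with a single annotated transcript held roughly 242 to 409 fragments (*C1qa*), 194 to 327 (*C1qb*), 410 to 586 (*Cx3cr1*) and 146 to 197 (*Tyrobp*) per library. The hippocampal genes *Prox1*, *Fibcd1* and *Neurod2* reached 14.0 to 16.4, 28.7 to 33.3 and 31.6 to 47.1 FPKM. The libraries also fell into sets that cross the genotypes, seen in shared steps of their low values (24.6% to 28.4% of low genes in the fullest window inside a set, 3.71% to 4.64% across sets). Control 1 and cKO 1 form the first set and control 2, cKO 2 and cKO 3 the second, and for the members differences are given within each set as well as pooled.

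All 9 members were expressed in all 5 libraries and no library stood apart for having lost them. *C1qa* had the highest mean over the libraries, 52.5 FPKM, followed by *Tyrobp* (50.2), *C1qc* (49.3), *C1qb* (38.4), *Csf1r* (29.1), *P2ry12* (27.7), *Cx3cr1* (20.9), *Trem2* (14.99) and *Tmem119* (11.2). The first 3 could not be ordered, since *C1qa* was above *Tyrobp* in 2 of 5 libraries and *Tyrobp* above *C1qc* in 3 of 5. *C1qb* was below *C1qc* in all 5 libraries although their ranges overlapped. *Csf1r* and *P2ry12* could not be ordered either, with *Csf1r* higher in 3 of 5. *P2ry12* lay above *Cx3cr1*, *Cx3cr1* above *Trem2* and *Trem2* above *Tmem119* in all 5 libraries. The ranges of *C1qb* and *Csf1r*, and those of *P2ry12* and *Cx3cr1*, did not touch.

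**Figure D1:**
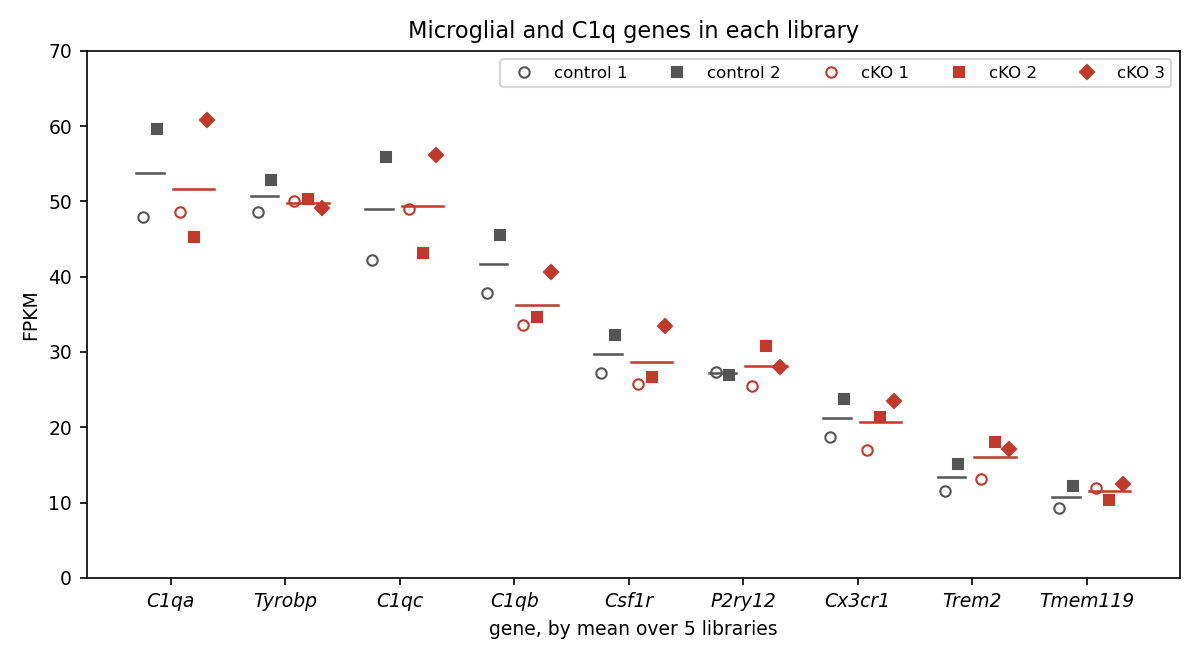
FPKM (linear axis) of the 9 genes in each library, ordered by mean; points are libraries (open circles, control 1 and cKO 1) and bars are group means. The control and cKO points of each gene overlap, and *Tmem119* is lowest on average with 9.24 to 12.4 FPKM.

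The comparison of control with cKO asks whether microglial genes differ between the genotypes in young adults. None of the 9 members passed a fold change of 1.5 with an unadjusted limma p under 0.05, where 0.659% of the 12740 tested genes passed. None had an unadjusted limma p under 0.05 (4.36% of tested genes, 2.37% higher and 1.99% lower in cKO) or an adjusted p under 0.05 (0.00785%). The targeted gene *Hdac1* also missed that adjusted level in this fit (limma, adjusted p = 0.219). With the set as a block its adjusted limma p was 0.0039. The groups overlapped in every member, whereas they did not overlap in 20.4% of tested genes. The fitted log2 fold changes ran from −0.19 (*C1qb*) to 0.25 (*Trem2*), with 4 members above 0 and 5 below, a median of −0.02, and adjusted p-values from 0.955 to 0.991. The median over all tested genes was 0.01, with 53.7% of them above 0. With 2 against 3 libraries the smallest p of an exact permutation test is 0.1, and the members gave exact p-values from 0.3 to 0.9. In whole tissue, fewer microglia and less RNA per microglial cell cannot be told apart, and a gain of the one could offset a loss of the other.

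The intervals say how large a difference these libraries still allow. For 8 of the 9 members the 95% interval of the log2 fold change lay inside a 1.5-fold change in either direction (0.58 on the log2 scale), as it did for 82.3% of tested genes. *Trem2* was the exception, with an interval of −0.13 to 0.63. *Tyrobp* had the narrowest interval, −0.24 to 0.19, and *P2ry12* the next, −0.21 to 0.30. Smaller differences than these could not be resolved with 5 libraries.

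**Figure D2:**
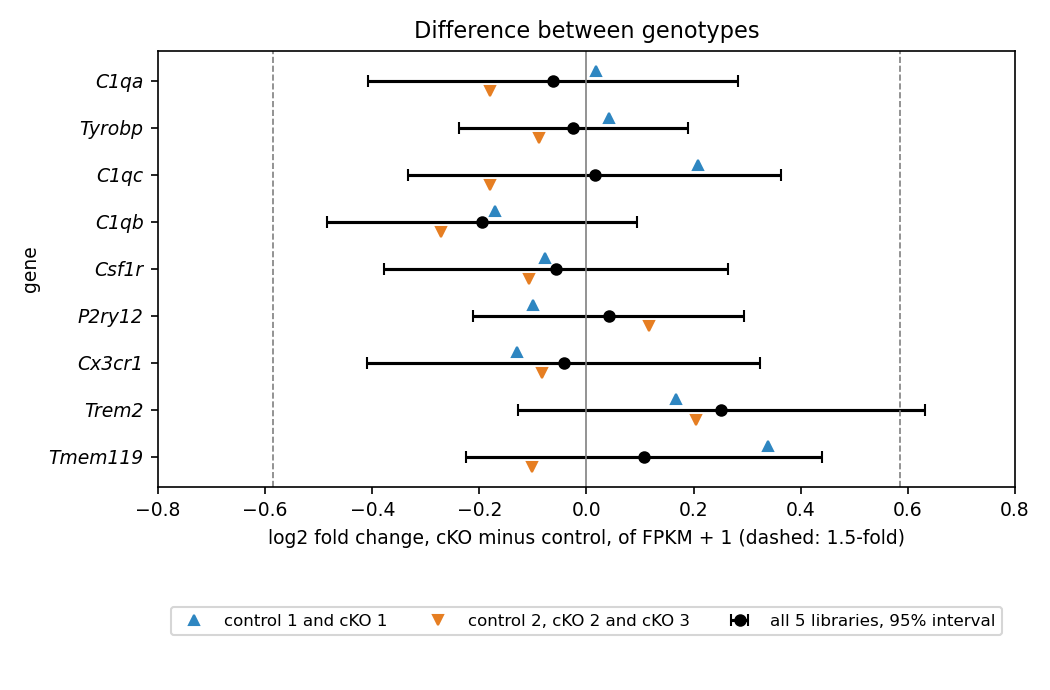
Log2 fold change of FPKM + 1, cKO minus control, for each gene; black points and bars are the fit over all 5 libraries with its 95% interval, triangles the difference within each set of libraries, which has no error, and dashed lines mark 1.5-fold. Every interval includes 0 and only that of *Trem2* reaches past a dashed line.

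Among the C1q chains, *C1qa* was at 47.9 and 59.6 FPKM in control hippocampi against 48.5, 45.3 and 60.9 FPKM in cKO hippocampi. Control 2 and cKO 3 were high and the other 3 libraries low, so the spread inside each genotype exceeded the difference between them. Its means were 53.8 ± 8.30 FPKM (SD, n = 2) and 51.6 ± 8.20 FPKM (SD, n = 3), which on the log2 scale is −0.06 (SE 0.15, adjusted p = 0.989). Within the first set it was 0.018 and within the second −0.18. *C1qc* was at 42.3 and 55.8 FPKM in control hippocampi against 49.0, 43.1 and 56.1 FPKM in cKO hippocampi. Control 2 and cKO 3 were again the highest, and the fitted log2 difference was 0.02 (SE 0.15, adjusted p = 0.991). It was 0.21 within the first set and −0.18 within the second. The sign also turned under other settings, to −0.013 with the set as a block.

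*C1qb* had the lowest fold change of the members. It was at 37.9 and 45.5 FPKM in control hippocampi against 33.5, 34.6 and 40.6 FPKM in cKO hippocampi. cKO 1 and cKO 2 were below both controls, while cKO 3 lay between them. The means were 41.7 ± 5.40 FPKM (SD, n = 2) and 36.3 ± 3.83 FPKM (SD, n = 3), or 87.0% of control, which on the log2 scale is −0.19 (SE 0.13, adjusted p = 0.955). It was −0.17 within the first set and −0.27 within the second. With the set as a block it came to −0.23 (SE 0.09) at an unadjusted limma p of 0.0332, which 9.34% of tested genes reach in that fit, and an adjusted p of 0.498. Without control 2 the pooled value was −0.065.

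The chains can also be compared with each other inside a library, where any scaling of the whole library drops out. The share of *C1qa* in the summed C1q FPKM was the steadiest, from 36.8% to 38.6%. The share of *C1qb* was 29.6% and 28.3% in control hippocampi against 25.6%, 28.2% and 25.8% in cKO hippocampi. The share of *C1qc* was 33.0% and 34.7% in control hippocampi against 37.4%, 35.01% and 35.6% in cKO hippocampi. The *C1qb* share was thus lower by 2.41 percentage points in the cKO mean and the *C1qc* share higher by 2.15, while cKO 2 lay close to control 2 for both. Leaving out each library in turn gave −3.23 to −1.75 for *C1qb* and 1.31 (without control 1) to 2.99 for *C1qc*. These shares were not tested. Summed C1q FPKM was 128.0 and 161.0 in control hippocampi against 131.1, 123.1 and 157.6 in cKO hippocampi, so both genotypes held low and high libraries.

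**Figure D3:**
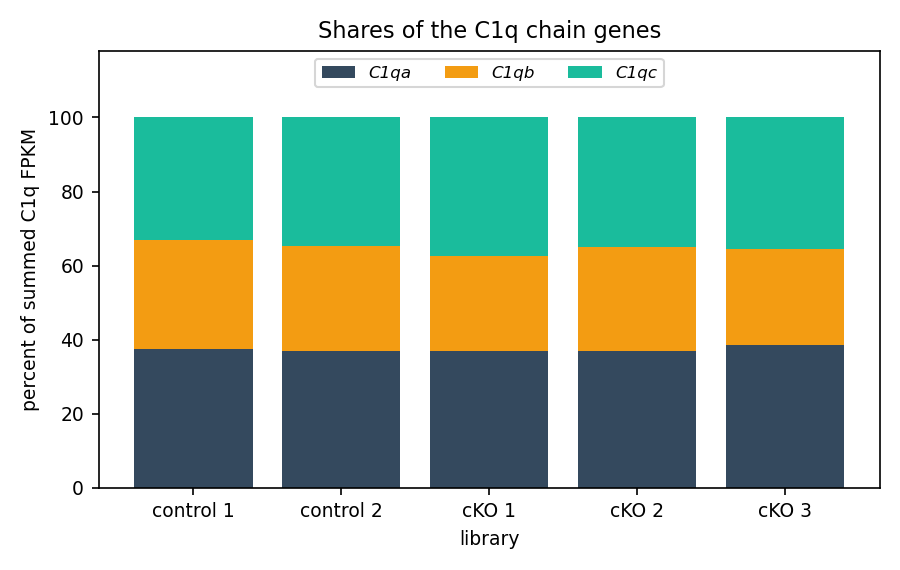
Share (percent) of *C1qa*, *C1qb* and *C1qc* in their summed FPKM, 1 bar per library. *C1qa* keeps 36.8% to 38.6%, and *C1qb* takes 28.3% and 29.6% in the controls and 25.6% to 28.2% in the cKO libraries.

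Among the receptors of resting microglia, *Cx3cr1* was at 18.7 and 23.8 FPKM in control hippocampi against 17.0, 21.4 and 23.5 FPKM in cKO hippocampi (log2 fold change −0.04, SE 0.16, adjusted p = 0.989). Control 1 and cKO 1 were the lowest libraries of this gene, and the second set exceeded the first by 0.36 on the log2 scale with genotype in the model (limma, adjusted p = 0.0601). The genotype difference of *Cx3cr1* was −0.13 within the first set, −0.083 within the second and −0.10 with the set as a block. Between the sets 22.9% of tested genes reached an unadjusted p of 0.05. *P2ry12* was at 27.3 and 27.0 FPKM in control hippocampi against 25.4, 30.8 and 28.0 FPKM in cKO hippocampi. The controls nearly coincided and lay inside the range of the cKO libraries (log2 fold change 0.04, SE 0.11, adjusted p = 0.989), with −0.10 within the first set and 0.12 within the second. Of the related nucleotide receptor genes, *P2ry13* was at 5.62 to 8.06 FPKM and *P2ry6* at 0.804 to 1.46 FPKM over the 5 libraries. These and the other genes of the fixed lists that were neither among the 3 most abundant nor under an unadjusted p of 0.05 were picked for naming after their values were seen.

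*Tmem119* was at 9.24 and 12.2 FPKM in control hippocampi against 11.9, 10.3 and 12.4 FPKM in cKO hippocampi. Control 1 was the lowest and cKO 3 the highest (log2 fold change 0.11, SE 0.14, adjusted p = 0.974). The direction differed between the sets, 0.34 in the first and −0.10 in the second, and it rested on control 1, without which the log2 fold change was −0.08. *Csf1r* (chromosome 18, 61265226 to 61291803, plus strand) shares 871 of its 5229 exonic nt with *Hmgxb3* on the opposite strand, and since use of the read strand is not stated, its FPKM may hold reads of that gene. *Csf1r* was at 27.2 and 32.2 FPKM in control hippocampi against 25.7, 26.7 and 33.5 FPKM in cKO hippocampi. Control 2 and cKO 3 were higher than the other 3 libraries, and the fitted log2 difference was −0.06 (SE 0.14, adjusted p = 0.989), with −0.08 and −0.11 within the sets.

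*Trem2* had the highest fold change of the members in the fit over all 5 libraries, though not within the first set or without cKO 2. It was at 11.6 and 15.1 FPKM in control hippocampi against 13.1, 18.05 and 17.1 FPKM in cKO hippocampi. cKO 2 and cKO 3 lay above both controls, while cKO 1 lay between them. The means were 13.3 ± 2.50 FPKM (SD, n = 2) and 16.1 ± 2.62 FPKM (SD, n = 3), or 120.6% of control, which on the log2 scale is 0.25 (SE 0.17, adjusted p = 0.955). It was 0.17 within the first set and 0.21 within the second, and 0.19 with the set as a block (limma, adjusted p = 0.543). The second set exceeded the first by 0.38 (limma, adjusted p = 0.0574), so the libraries with the most *Trem2* are also those of the second set. Without cKO 1 the log2 fold change was 0.38 with an unadjusted limma p of 0.0284. In that fit 7.61% of tested genes had an unadjusted p under 0.05. Without control 1 the log2 fold change of *Trem2* was 0.07.

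*Tyrobp*, the signalling partner of *Trem2*, had the smallest spread of the members. It was at 48.5 and 52.9 FPKM in control hippocampi against 50.02, 50.3 and 49.1 FPKM in cKO hippocampi (log2 fold change −0.02, SE 0.09, adjusted p = 0.989), with 0.043 within the first set and −0.088 within the second. Its highest library exceeded its lowest by 1.09 times, against 1.21 times for *P2ry12* and 1.56 times for *Trem2*. The coefficient of variation over the 5 libraries was 3.35%, and at 17.97% that of *Trem2* was the highest. Counting error from the estimated fragments of *Tyrobp* would alone be 7.13% to 8.28%, so its small spread cannot be read as a property of the gene, and the depth estimate is approximate. *Trem2* FPKM came to 23.8% and 28.6% of *Tyrobp* FPKM in control hippocampi against 26.2%, 35.9% and 34.9% in cKO hippocampi, a ratio that was low in control 1 and cKO 1 and highest in cKO 2 and cKO 3.

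As a mean over the members, libraries of the same genotype differed more than the genotypes did. Control 1 was below the gene mean for all 9 members, and control 2 and cKO 3 were above it for 8 of 9 each. cKO 1 was above the mean for 2 members and cKO 2 for 4. The mean log2(FPKM + 1) over the members was 4.77 and 5.03 in control hippocampi against 4.801, 4.87 and 5.04 in cKO hippocampi, and their means of 4.90 ± 0.186 (SD, n = 2) and 4.90 ± 0.120 (SD, n = 3) differed by 0.0041. Within the sets the difference was 0.03 and −0.08. The residual spread around the genotype means was 0.05 to 0.24 on the log2 scale, and it was above 0.13, the median of the 4654 other tested genes with means in the members' range of FPKM, for 7 of the 9 members. The other 2 were *P2ry12* and *Tyrobp*.

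**Figure D4:**
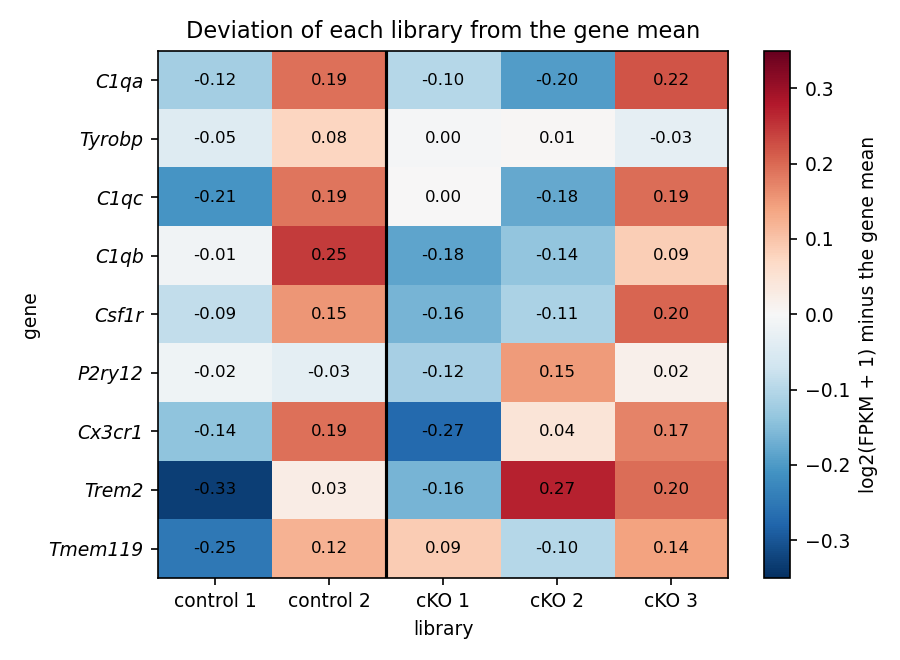
Log2(FPKM + 1) of each library minus the mean of that gene over the 5 libraries (colour and number), with the controls left of the line. Control 1 is below 0 in every row, control 2 and cKO 3 are above 0 in 8 of 9 rows each, and *Tyrobp* stays within 0.08 of its mean.

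The genes whose profile over the 5 libraries was closest to the mean profile of the members were *Syt11*, *Me3*, *Pam*, *Nt5c* and *Slc35e1*, with root mean square distances of 0.0051 to 0.0170 on the log2 scale among 9182 genes of at least 5 FPKM. None of them is in a microglial list. *Syt11* was at 98.2 and 118.3 FPKM in control hippocampi against 100.1, 104.9 and 118.5 FPKM in cKO hippocampi. A match over 5 libraries is a description of these libraries.

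A broader list of 26 microglial genes was examined beside the members. All 26 were tested, 20 were higher and 6 lower in the cKO mean, and none had an unadjusted limma p under 0.05. Of all tested genes 53.7% had a fitted log2 fold change above 0. Among the abundant genes of the list, *Ctss*, which encodes cathepsin S, was at 71.1 and 82.3 FPKM in control hippocampi against 73.4, 89.0 and 82.7 FPKM in cKO hippocampi, and *Ly86* at 14.98 and 18.9 against 13.4, 22.4 and 19.5 FPKM. Their log2 fold changes were 0.09 and 0.10 (adjusted p = 0.974 and 0.986). The list had a median log2 fold change of 0.08 against 0.01 for all tested genes, and the groups did not overlap in 5 of its genes, against 20.4% of tested genes. Of these, *Itgam*, *Laptm5* and *Fcer1g* were lower in cKO (log2 fold changes −0.21, −0.22 and −0.19). *Cd53* and *Ptprc* were higher (0.21 and 0.06). The median stayed above 0 under each scaling (0.027 after rescaling to a common total) but was −0.0062 without control 1. *Aif1*, which encodes the common microglial stain IBA1, was at 7.95 and 13.6 FPKM in control hippocampi against 10.3, 13.7 and 13.5 FPKM in cKO hippocampi. The PU.1 gene, listed under its older symbol *Sfpi1*, was at 1.80 to 3.25 FPKM. Control 1 and cKO 1 were again low, with 7 of the 26 genes above their own mean in each, against 16 in control 2, 16 in cKO 2 and 21 in cKO 3.

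The partners of C1q were mostly near the lower limit of the data. *C1ra* and *C1s*, which encode the proteases of the C1 complex, were at no more than 0.404 and 0.206 FPKM in any library, and *C2* and *C3*, which encode later components, at no more than 0.228 and 0.142 FPKM. Of 16 complement symbols 15 were listed (all but *C1s1*) and 7 were tested, 3 higher and 4 lower, with a median log2 fold change of −0.02. Leaving out 1 library moved this median from −0.16 (without cKO 3) to 0.24 (without control 2), and it was −0.12 with the set as a block. *C4b*, which encodes a C4 component cleaved by C1, was the only one of them under an unadjusted p of 0.05, against 4.36% of all tested genes. It was at 6.42 and 6.68 FPKM in control hippocampi against 3.65, 4.98 and 5.47 FPKM in cKO hippocampi, with every cKO library below both controls. Its close copy *C4a* can share reads with it, which leaves its level uncertain. Its log2 fold change was −0.42 (SE 0.16, unadjusted limma p = 0.0317, adjusted p = 0.955, exact permutation p = 0.2), with −0.67 and −0.30 within the sets, so it did not pass correction. *Calr*, a C1q-binding chaperone gene, was at 138.3 and 215.0 against 128.1, 186.5 and 207.7 FPKM.

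Ligands of the receptors were examined next, and 9 of 16 such genes and signalling partners were tested. Of these 4 were higher and 5 lower, none under an unadjusted limma p of 0.05. *Cx3cl1*, the neuronal ligand of CX3CR1, was at 90.4 and 116.6 FPKM in control hippocampi against 92.7, 82.9 and 106.2 FPKM in cKO hippocampi (log2 fold change −0.13, adjusted p = 0.970). The CSF1R ligand genes *Il34* and *Csf1* were at 10.4 to 15.7 and 5.33 to 6.27 FPKM over the 5 libraries. *Apoe*, whose product binds TREM2, was at 2276 and 1937 against 2525, 2013 and 2189 FPKM (log2 fold change 0.09, adjusted p = 0.976), and *Clu* at 642.6 and 681.4 against 627.1, 628.8 and 669.0 FPKM (log2 fold change −0.04). *Hcst*, the neighbour of *Tyrobp*, was listed at 0 in 4 libraries and at 0.521 FPKM in cKO 3.

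Genes known to rise in activated microglia address another state of the same cells. Of 20 such genes 17 were tested, 14 higher and 3 lower, where 53.7% of all tested genes were above 0. The list had a median log2 fold change of 0.08. That median was 0.012 after rescaling to a common total and 0.010 without cKO 3, and 0.037 without control 1. *Itgax*, *Clec7a* and *Cst7*, which mark that state most closely, were at no more than 0.231, 0.422 and 0.171 FPKM in any library and were not tested. *Timp2*, a metalloproteinase inhibitor gene also expressed by other brain cells, was the only gene of the list under an unadjusted p of 0.05, against 4.36% of all tested genes, and it was lower in cKO. It was at 48.3 and 51.3 FPKM in control hippocampi against 36.1, 42.2 and 42.8 FPKM in cKO hippocampi (log2 fold change −0.30, SE 0.11, unadjusted limma p = 0.0251, adjusted p = 0.955, exact permutation p = 0.1). Within the sets *Timp2* differed by −0.41 and −0.26, and with the set as a block its adjusted limma p was 0.411. *Fth1*, *Ctsd* and *B2m*, the most abundant genes of the list, had log2 fold changes of −0.16, 0.06 and 0.10 (adjusted p = 0.955, 0.989 and 0.961).

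Other macrophages and blood cells could share the members. Of 15 genes of border macrophages and blood leukocytes 2 were tested, *Mrc1* (0.963 to 1.29 FPKM) and *Pf4* (0.778 to 1.95 FPKM), and *Ly6c2*, *Ngp* and *Cd3e* were listed at 0 in all 5 libraries. The list summed to 5.98 to 7.39 FPKM in the controls and 6.09 to 6.89 FPKM in the cKO libraries, beside 270.6 to 324.2 and 274.3 to 321.2 FPKM for the members. Endothelial markers moved with the libraries in a similar order, with 9 of 10 above their own mean in control 2 and 10 of 10 in cKO 3, against 2 in control 1, 0 in cKO 1 and 1 in cKO 2. Their mean deviation was −0.09 and 0.15 in control hippocampi against −0.20, −0.19 and 0.33 in cKO hippocampi, where that of the members was −0.13 and 0.13, and −0.10, −0.03 and 0.13. In the cKO mean 4 endothelial markers were higher and 6 lower. Their median log2 fold change was −0.11, and −0.24 to 0.092 on leaving out each library in turn. *Slc2a1* was lower at an unadjusted limma p of 0.0413 (adjusted p = 0.955), against 1.99% of tested genes lower at 0.05. Whether these vascular markers bear on the members' levels was not tested. Neuron markers were lower in the cKO mean in 10 of 10 genes, where 53.7% of all tested genes were above 0. Of these markers 2 were under an unadjusted limma p of 0.05 (*Nefm* and *Stmn2*, both with an adjusted p of 0.955), against 1.99% of tested genes lower at that level. Their median log2 fold change was −0.15, and −0.075 without control 2. *Syt1*, *Snap25*, *Nefl* and *Gad1* did not keep their sign under every alternative. Astrocyte markers were higher in 6 of 10, and *Aqp4* and *Gfap* had an unadjusted p under 0.05 (adjusted p = 0.175 and 0.955), against 2.37% of tested genes. With the set as a block the adjusted limma p of *Aqp4* was 0.0187. The part of these lists in the members' values was not tested.

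**Figure D5:**
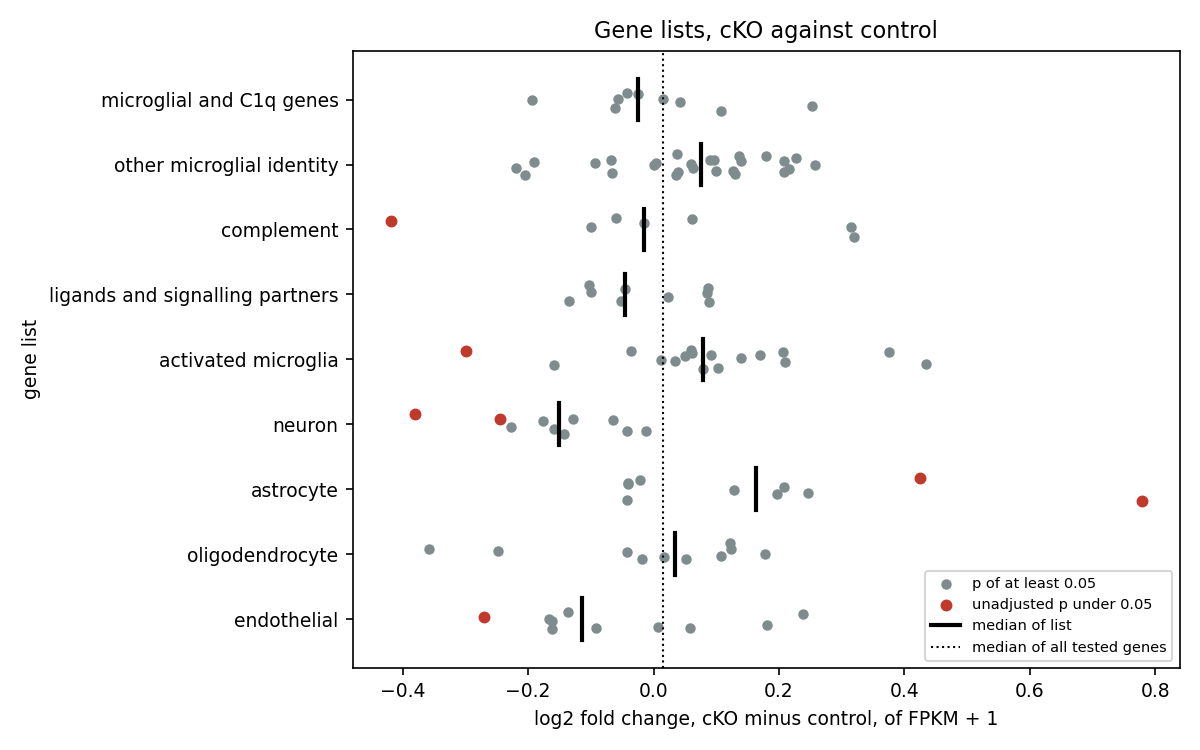
Log2 fold change of FPKM + 1, cKO minus control, for the tested genes of each list (points, spread vertically for sight), with the list median (thick bar) and the median of all tested genes (dotted line). The members lie between −0.19 and 0.25 with no gene in red, the colour for an unadjusted p under 0.05.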

How the data were processed

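Total RNA of hippocampal tissue was sequenced on an Illumina HiSeq after TruSeq library preparation. The deposited values are FPKM per gene symbol, which the authors made with Tophat2 and Cufflinks 2.0.0 on mm9 from collapsed reads, so duplicate fragments may be missing from abundant genes. FPKM are no counts, and log2(FPKM + 1) was tested with limma 3.58.1 (R 4.3.3; lmFit, eBayes with trend, two-sided, genotype as the only term, 5 libraries) over the 12740 genes averaging 1 FPKM or more. The study's methods name no test for its threshold. Adjusted p-values are Benjamini-Hochberg values over all tested genes. The pseudocount understates the fold change of low genes. Positions are 1-based from GENCODE vM1 on NCBIM37, the assembly of mm9, which matched 90.8% of symbols, and copies were searched with BLAST 2.17.0. Depth was read from single-transcript genes, with 30 to 77 genes per library, and covers counting error only. Sets of libraries were found from ratios of genes with a mean under 0.3 FPKM (windows of 0.05 log2 units, over 10% shared). Exact permutation tests ran over the 10 splits.

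The members and gene lists were chosen with earlier results of these data known. The rule for genes named beyond the members and *Hdac1* took, in each list, those under an unadjusted p of 0.05 and the 3 most abundant, and the 5 genes nearest to the members' mean profile. Some genes that this rule names are not reported here, and list genes named outside it were picked after their values were seen. Red cell, oligodendrocyte and hippocampal lists were run too: 1 of 4, 0 of 10 and 0 of 8 tested genes had an unadjusted p under 0.05. *Hba-a2* was the red cell gene, which shares sequence with *Hba-a1*, so the values of both are uncertain. Alternatives were a pseudocount of 0.1, no filter or a minimum mean of 5 FPKM, 3 scalings, no variance trend, blocks for replicate number and set, and leaving out each library.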

Additional observations from a re-analysis of the deposited data

How the results depend on the processing

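Under 14 alternative fits, 0 members passed a fold change of 1.5 with an unadjusted p of 0.05 and 0 an adjusted limma p of 0.05. Adjusted p-values ran from 0.365 to 0.9999. The count under an unadjusted p of 0.05 went from 0 to 1 with the set block (*C1qb*, −0.23), the replicate block (*C1qb*, −0.28) and without cKO replicate 1 (*Trem2*, 0.38). By the labels the control and cKO samples share only their numbers. Same-numbered libraries also fell in the same set, and they deviated together from their genotype means across genes with r = 0.402 and r = 0.269. With only 2 controls, the deviations of control 2 mirror those of control 1, so these r-values are not independent. The replicate block gave 1430 genes under an unadjusted p of 0.05 in place of 555.

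The sign of *C1qc* turned to −0.014 with quantile normalization, −0.00089 with median-ratio size factors, −0.050 after rescaling to a common total, −0.013 in the fit blocked by set, −0.079 with the replicate block and −0.18 within the second set. *P2ry12* turned to −0.023 after that rescaling (median of all genes −0.05, from 0.01) and to −0.10 within the first set. *C1qa* turned to 0.018 and *Tyrobp* to 0.043 within the first set, and *Tmem119* to −0.10 within the second. *C1qb* and *Trem2* kept their sign under each alternative. The causes were not tested.

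Leaving out each library in turn gave log2 fold changes of −0.22 to 0.093 for *C1qa*, −0.32 to −0.065 for *C1qb*, −0.18 to 0.21 for *C1qc*, −0.21 to 0.12 for *Cx3cr1*, −0.024 to 0.11 for *P2ry12*, −0.078 to 0.29 for *Tmem119*, −0.18 to 0.062 for *Csf1r*, 0.074 to 0.43 for *Trem2* and −0.085 to 0.036 for *Tyrobp*. The mean over the members went from −0.13 to 0.14. For 8 of the 9 members, all but *P2ry12*, the lowest value came without control replicate 1 and the highest without control replicate 2, and 6 members had opposite signs in those fits.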
